A study of Drosophila melanogaster with 8 samples.

Results

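Group housing was compared with isolation in Drosophila melanogaster that expressed dTip60E431Q, on 4 of the 8 arrays of the series. The arrays were chosen by their titles: 2 of dTip60E431Q flies kept in an enriched environment (EE) and 2 of dTip60E431Q flies kept in isolation (ISO). The study asked whether the histone acetyltransferase Tip60 takes part in the response of Kenyon neurons, the intrinsic cells of the mushroom body, to social enrichment. An EE vial held 30 flies with the sexes in equal number, and an ISO vial held 1 fly. Housing lasted 5 days in all groups. dTip60E431Q is a form of Tip60 without acetyltransferase activity that acts in a dominant negative way, expressed from a UAS transgene, and the control flies lacked it. In every group the OK107-GAL4 driver marked the cells with GFP, and GFP-positive cells were sorted from pooled brains of males and females. OK107-GAL4 is known to drive expression elsewhere in the brain, among others in the pars intercerebralis and the optic lobes, so a sorted pool may hold more than Kenyon cells. The labels give an age of 5 days for every array except dTip60E431Q ISO replicate 2, for which they give 6 days.

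Tip60 transfers acetyl groups to histones and works in a large complex that also remodels nucleosomes. Many of the genes named here are known from the midgut and the fat body. Enterocytes of the midgut secrete proteases, lipases and glycosidases into the gut lumen. The fat body stores protein and fat, makes yolk and circulating proteins and runs much of the one-carbon and purine metabolism of the fly.

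The Tip60 probe set, which may read the transgene as well as the endogenous gene, had log2 signals of 9.64 and 9.64 in dTip60E431Q ISO and of 9.88 and 10.14 in dTip60E431Q EE. All 4 lay above the control arrays, which ranged from 8.07 to 8.41. The EE minus ISO difference of Tip60 was 0.37 (SE 0.15) and did not pass limma's test (Benjamini-Hochberg adjusted p = 0.593). The median signal per array lay between 6.41 and 6.50. The 2 dTip60E431Q ISO arrays were much alike: the SD of the difference between them over all probe sets was 0.183, against 0.372 for dTip60E431Q EE, 0.479 for control ISO and 0.358 for control EE. No source says whether paired arrays were made from separate fly pools, so p-values reflect only how far arrays of a group differed, a spread that may be technical. Calls were therefore also made with the 2 dTip60E431Q ISO arrays averaged and counted as 1 sample.

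A probe set was called when limma's adjusted p was under 0.05 and the fold at least 1.3. By this rule 84 of 18769 probe sets differed between EE and ISO in dTip60E431Q (0.448%), of which 8 were higher in EE (0.0426%) and 76 lower (0.405%). With the ISO arrays averaged, 40 were called, all of them falls among the 76. At an unadjusted p under 0.05 with the same fold there were 1155 probe sets (6.15%), 504 higher (2.69%) and 651 lower (3.47%). The EE and ISO arrays did not overlap in 41.7% of probe sets. The median difference over all probe sets was 0.01. In the control flies the same comparison, on other arrays, gave 17 calls (0.0906%). The difference between the genotypes in their response to housing, tested as an interaction, was called for 126 probe sets (0.671%), and for 45 with the ISO arrays averaged. Of the 84 calls, 68 were also called in the interaction, which contains this comparison, in the same direction.

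**Figure D1:**
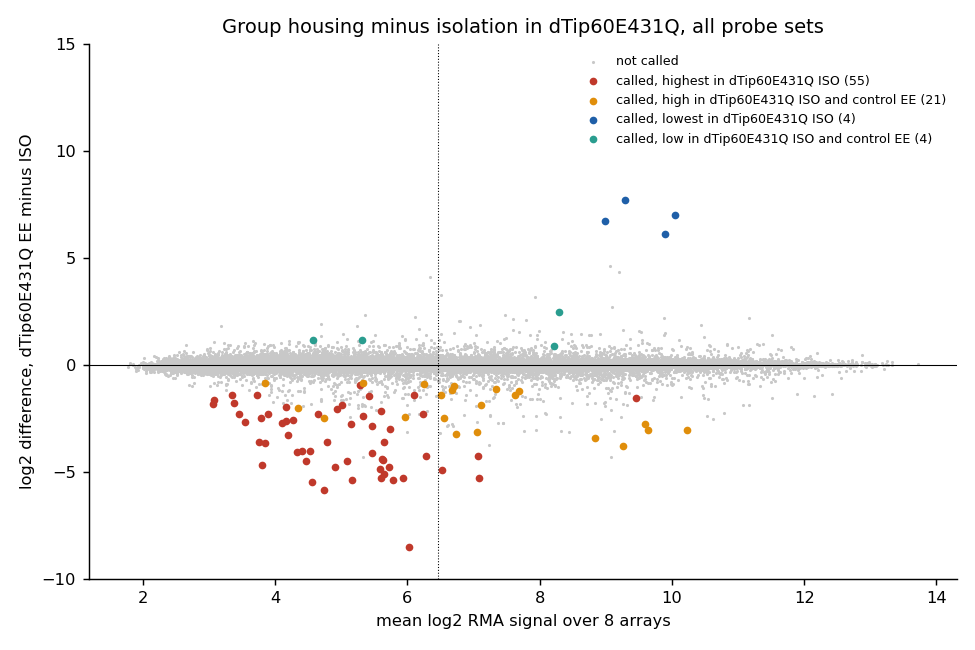
The log2 difference between group-housed and isolated dTip60E431Q flies (vertical axis) is plotted against the mean log2 signal over 8 arrays (horizontal axis) for every probe set, and the dotted line marks the median of probe set means, 6.46. Of the 84 called probe sets (coloured by their order over the 8 arrays), 76 lie below 0, and 59 lie left of the dotted line.

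Most calls were of weak probe sets. The mean signal lay below 6.46, the median of probe set means, for 57 of the 76 that fell and for 2 of the 8 that rose. RMA gives no detection call, so wherever the lower group read below the array median, as it did also for Jon25Biii and CG8343, its signal may be background and the difference has no firm size. Among the 8908 probe sets at or above the array median on all 4 dTip60E431Q arrays, 10 were called (0.112%), 1 higher and 9 lower. Read by the brightest probe set of each gene, 73 of 11982 genes were called (0.609%), 5 higher (0.0417%) and 68 lower (0.568%), and 38 of the falls were of genes known only by a CG number.

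Set against all 8 arrays, the calls fell into 4 orders, a grouping made after the values were seen. In 55 both dTip60E431Q ISO arrays lay above the other 6 arrays, an order that 7.53% of all probe sets share. In 21 the dTip60E431Q ISO and control EE arrays lay above the other 4 (3.40% of all probe sets). The 8 rises were made up of 4 in which dTip60E431Q ISO was lowest (6.48%) and 4 in which dTip60E431Q ISO and control EE were low together (2.90%). No call had dTip60E431Q EE as the highest or the lowest group, although 2.71% and 1.88% of probe sets did. Over the 55 calls that were highest in dTip60E431Q ISO, the ISO mean stood a median of 3.31 above the mean of the control arrays, and the EE mean 0.04. In 53 of the 55 the EE mean was within 1 log2 unit of the control mean. However, in 54 of the 55 the EE mean lay below the median of dTip60E431Q EE replicate 1, where signal may be background.

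**Figure D2:**
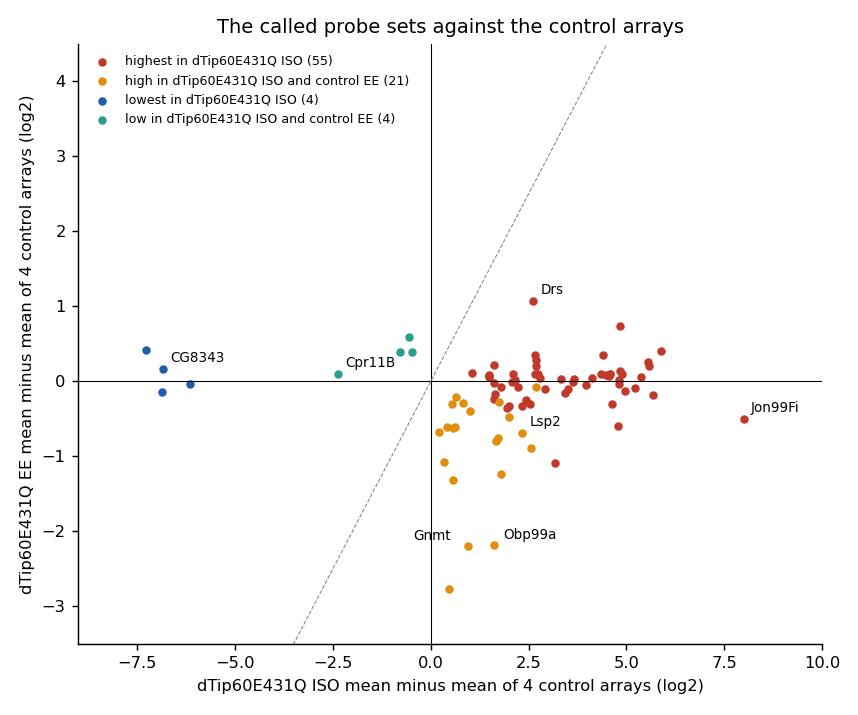
For each of the 84 called probe sets, the dTip60E431Q ISO mean (horizontal axis) and the dTip60E431Q EE mean (vertical axis) are shown relative to the mean of the 4 control arrays, in log2 units; the dashed line marks equal values. The 55 red points lie far to the right and close to 0 on the vertical axis, Jon99Fi farthest, and the 4 blue points lie below -6 on the horizontal axis and close to 0 on the vertical one.

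Digestive proteases showed the largest differences. The Jonah genes encode secreted serine endopeptidases of the midgut, and 7 of the 13 measured were called, all lower in EE, against 0.568% of all genes. At an unadjusted p 11 of 13 passed in that direction (4.53% of all genes), none was above 0, and the median difference of the family was -2.74, against -0.01 over all genes. Jon99Fi had log2 signals of 12.22 and 12.07 in dTip60E431Q ISO and of 3.15 and 4.14 in dTip60E431Q EE. The control arrays ranged from 3.37 to 5.48, so the isolated dTip60E431Q flies stood alone. Jon99Fi fell by 8.50 in EE (SE 0.65, adjusted p = 0.00216 by limma).

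Jon25Biii repeated this order with less spread, at 11.10 and 11.07 in ISO and 5.72 and 5.85 in EE, while the control arrays lay between 5.53 and 5.93. It fell by 5.30 (SE 0.15, adjusted p = 1.94e-05 by limma). Jon65Ai (-4.78), Jon65Aii (-4.48) and Jon44E (-4.41) fell by similar amounts, and Jon66Ci (-1.43) and Jon66Cii (-0.85) by less. The last pair lost their calls when the ISO arrays were averaged. Other Jonah genes varied within groups too: Jon65Aiii had 9.67 and 6.89 in dTip60E431Q EE and 5.93 and 9.08 in control ISO, and its difference of -2.24 had an SE of 1.18. Jon99Ci, at 8.62 and 8.84 in ISO and 4.95 and 3.93 in EE, had a difference of -4.29 that was not called (adjusted p = 0.097 by limma).

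Of 10 trypsins, thetaTry alone was called, where 0.568% of all genes were called lower. Its signals were 6.40 and 6.35 in dTip60E431Q ISO and 2.96 and 2.61 in EE, with the control arrays between 2.84 and 3.0, and it fell by 3.59 (SE 0.14). A further 5 trypsins passed at an unadjusted p, all lower (4.53% of all genes), and the median of the family was -0.77. alphaTry was not among them, and arrays of the same group lay far apart, 8.67 and 5.52 in dTip60E431Q EE and 4.22 and 8.87 in control ISO (difference -2.33, SE 1.87).

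In the list of 28 other digestive and gut-lining genes, 3 were called, all lower (0.568% of all genes). mag, which encodes a secreted gut lipase, had 8.92 and 9.15 in ISO and 3.32 and 3.06 in EE. The control arrays read 3.0 to 3.71, at the level of the EE flies, and mag fell by 5.85 (SE 0.29, adjusted p = 0.000202 by limma). Mal-A2, a maltase, fell by 1.43 and Ser6, a serine protease, by 2.30, both at low signal, and the call of Ser6 was lost with the ISO arrays averaged. yip7, another protease of this list, differed by -3.73 but was not called (SE 0.71, adjusted p = 0.157 by limma), and its EE arrays stood apart at 8.11 and 5.81.

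Some of the CG genes with large falls belong to peptidase families, and the functions of the others were not counted. CG10472 and CG10477, serine proteases whose genes flank Jon65Aii and Jon65Ai, fell by 4.93 and 4.79. The carboxypeptidases CG17633 and CG8560 fell by 5.36 and 5.31. The aminopeptidases CG31198 and CG31233 fell by 5.37 and 4.02. CG18493 fell by 5.08 and CG42397, which carries a chitin-binding domain, by 5.48. Peritrophin-15a and Peritrophin-15b, proteins of the chitinous sheet that lines the gut lumen, fell by 2.31 and 1.39. The calls of CG8560 and of the peritrophins were lost with the ISO arrays averaged. In these 10 genes both ISO arrays exceeded the other 6.

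Genes that define enterocytes had a median difference of -0.39. The median was -2.74 for the Jonah genes, -0.77 for the trypsins and -0.40 for the other digestive and gut-lining genes. Mean signal lay below 6.46 for 5 of the 6 measured. None of the 6 measured was called, and 3 passed at an unadjusted p, all lower, against 4.53% of all genes. mex1, a marker of midgut epithelium, had 6.11 and 5.97 in ISO and 4.94 and 3.89 in EE, with a difference of -1.62 (SE 0.46, adjusted p = 0.388 by limma). GATAe, a transcription factor of endoderm, had a difference of -1.78, with control ISO arrays as far apart as 3.19 and 5.30. The mean signal of the Jonah list was 8.26 and 8.25 on the dTip60E431Q ISO arrays and between 4.35 and 5.25 on the other 6. In such bulk samples, fewer cells of a type and less RNA per cell cannot be told apart. The RNA came from GFP-positive cells sorted from dissected brains, and no source gives the purity of the sort. The part of gut RNA in the calls was not tested.

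The calls also included genes of immunity and detoxification. PGRP-SC2, an amidase that breaks down bacterial peptidoglycan, had 10.30 and 10.30 in ISO, 5.91 and 6.17 in EE and 5.65 to 6.22 in the controls. It fell by 4.26 (SE 0.19, adjusted p = 0.000131 by limma). The antifungal peptide gene Drs fell from 11.19 and 11.10 to 9.27 and 9.93 (difference -1.55, SE 0.21, adjusted p = 0.0399). Drs differs from the genes above in that its EE arrays also lay above the controls, which ranged from 8.09 to 8.95.

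These were the 2 calls among 27 antimicrobial and recognition genes, where 0.568% of all genes were called lower. At an unadjusted p 9 passed, these 2 included, all lower in EE (4.53% of all genes). Listericin, an antibacterial protein gene outside this list, was higher in EE at an unadjusted p. In 12 of the 27 both dTip60E431Q ISO arrays lay above the other 6, against 7.53% of all probe sets. Def, with 8.96 and 9.07 in ISO and 6.48 and 6.09 in EE, differed by -2.73, and DptB by -2.13, but control arrays of both spanned most of that range. Of 5 metallothioneins, which bind metal ions, MtnC fell by 2.13 and MtnD, which was high in dTip60E431Q ISO and in control EE, by 1.41. Acbp5, of the acyl-CoA-binding family, fell by 4.85, Ag5r2 by 3.02, hiro by 3.62 and the P450 gene Cyp4d1 by 0.95. With the ISO arrays averaged, PGRP-SC2, Ag5r2 and hiro kept their calls, and Drs, MtnC, MtnD, Acbp5 and Cyp4d1 lost theirs. Cyp4d1 was the one call among 83 cytochrome P450 genes, where 0.568% of all genes were called lower.

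**Figure D3:**
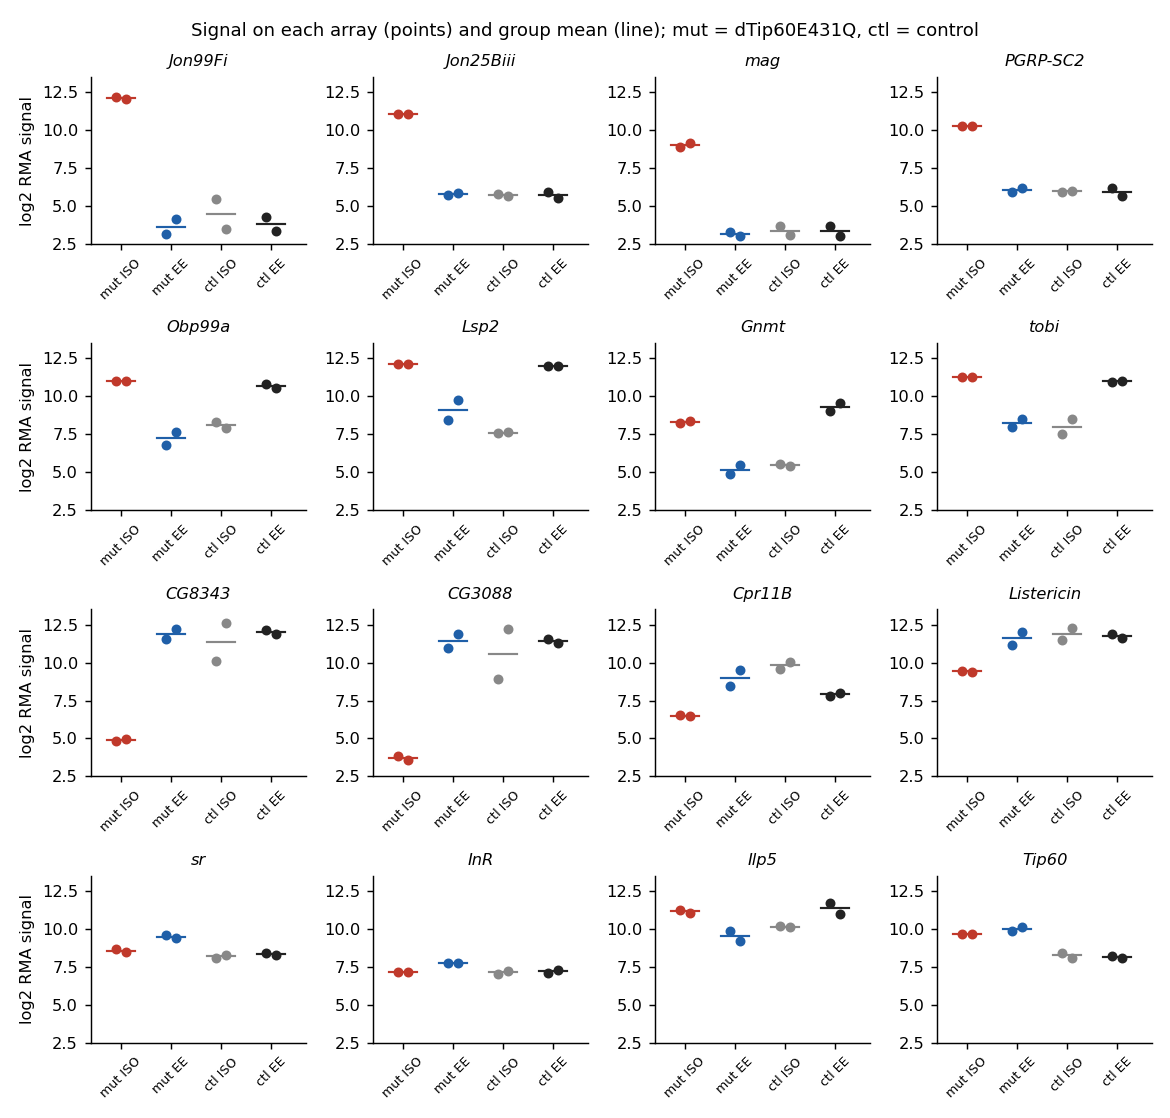
Each panel gives the log2 RMA signal of 1 gene on all 8 arrays (points, 2 per group) with the group mean (line), on a shared vertical axis; mut is dTip60E431Q and ctl is control. Jon99Fi, Jon25Biii, mag and PGRP-SC2 are high in isolated dTip60E431Q flies alone, Obp99a, Lsp2, Gnmt and tobi are high there and in group-housed controls, CG8343 and CG3088 are low in isolated dTip60E431Q flies alone, and sr and InR are highest in group-housed dTip60E431Q flies.

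A second set of falls had the opposite difference in control flies. Obp99a, of the odorant-binding protein family, had 10.99 and 11.04 in dTip60E431Q ISO and 6.82 and 7.64 in dTip60E431Q EE. In controls it was the reverse, with 8.29 and 7.93 in ISO and 10.85 and 10.57 in EE. Obp99a fell by 3.79 in dTip60E431Q (SE 0.27, adjusted p = 0.00148 by limma), and the responses of the genotypes differed by -6.38 (adjusted p = 0.000757 for the interaction). It was called in every fit that left out an array and with the ISO arrays averaged.

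Lsp2, a hexamerin that the fat body stores, had 12.14 and 12.17 in dTip60E431Q ISO, 8.47 and 9.77 in dTip60E431Q EE, 7.56 and 7.65 in control ISO and 12.02 and 12.02 in control EE. The groups did not overlap in either genotype, and the isolated mutants read like the group-housed controls. Lsp2 fell by 3.04 in dTip60E431Q (SE 0.36, adjusted p = 0.0188 by limma) and rose by 4.42 in controls. The call was lost with either dTip60E431Q ISO array or either control EE array left out, and with the ISO arrays averaged. Leaving out weak probe sets lost the call as well. tobi, an alpha-glucosidase known as a target of brain insulin, fell from 11.30 and 11.31 to 8.0 and 8.53 (-3.04, SE 0.32).

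Over the 12 fat body genes measured, 4 were called, all lower (0.568% of all genes), and 1 of them, Gnmt, with the ISO arrays averaged. At an unadjusted p 7 passed, all lower (4.53%), and no member was above 0. Their median was -1.42 in dTip60E431Q and 1.39 in controls. In 10 of the 12 the dTip60E431Q ISO and control EE arrays were the 4 highest, against 3.40% of all probe sets. The mean signal of the list was 10.15 and 10.16 in dTip60E431Q ISO, 8.38 and 8.85 in dTip60E431Q EE, 8.23 and 8.53 in control ISO, and 10.19 and 10.16 in control EE. The RNA came from the same dissection and sort of brains, and the part of fat body RNA in the calls was not tested.

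Members of the list that were not called ranged widely. fit, a secreted protein of the fat body linked to satiety in females, had 11.74 and 11.83 in ISO and 9.22 and 9.56 in EE, with a difference of -2.40 (SE 0.46, adjusted p = 0.165 by limma). The yolk protein genes Yp2 (-1.36, adjusted p = 0.0946) and Yp3 (-1.48, adjusted p = 0.149) differed by less, and Yp1, with the brightest signals of the list, by -0.19. Yolk proteins are made by females, and pools held both sexes.

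Enzymes of glycine and one-carbon metabolism often had the order of the fat body genes. This list and the next were drawn up after the values had been seen, and Gnmt and Sardh also belong to the fat body list. Gnmt, which methylates glycine with S-adenosylmethionine, had 8.27 and 8.35 in dTip60E431Q ISO, 4.88 and 5.47 in dTip60E431Q EE, 5.52 and 5.40 in control ISO and 9.02 and 9.53 in control EE. It fell by 3.14 in dTip60E431Q (SE 0.23, adjusted p = 0.00195 by limma) and rose by 3.82 in controls. Sardh, which returns the product to glycine, fell by 2.46.

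Of the 14 enzymes of that list, 4 were called, all lower (0.568% of all genes), and 10 passed at an unadjusted p, also lower (4.53%). With the ISO arrays averaged, Gnmt and CG3999 were still called. The other 2 calls were CG3999, a glycine dehydrogenase of the glycine cleavage system, which fell by 2.47, and the threonine dehydrogenase Tdh, which fell by 1.23. CG10621, a homocysteine S-methyltransferase, had 10.47 and 10.44 in ISO and 7.46 and 8.54 in EE, and its difference of -2.45 narrowly missed the call (adjusted p = 0.0546 by limma). The folate enzymes Shmt (-1.52), pug (-1.55) and Nmdmc (-1.13), and CG6415 of the glycine cleavage system (-1.50), passed only at an unadjusted p. In 11 of the 14 the dTip60E431Q ISO and control EE arrays were the 4 highest, against 3.40% of all probe sets.

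Purine enzymes followed in part. ry, the xanthine dehydrogenase that ends purine breakdown, was the one call among 10, where 0.568% of all genes were called lower. It had 8.0 and 8.05 in ISO and 6.90 and 6.94 in EE, and fell by 1.11 (SE 0.15, adjusted p = 0.0399 by limma), a call lost in 7 of the 9 fits with an array left out or the ISO arrays averaged. Gart, which carries several steps of purine synthesis, had 10.43 and 10.44 in ISO and 8.04 and 9.16 in EE (difference -1.83, adjusted p = 0.165). Pfas differed by -1.49 and Paics by -1.06.

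**Figure D4:**
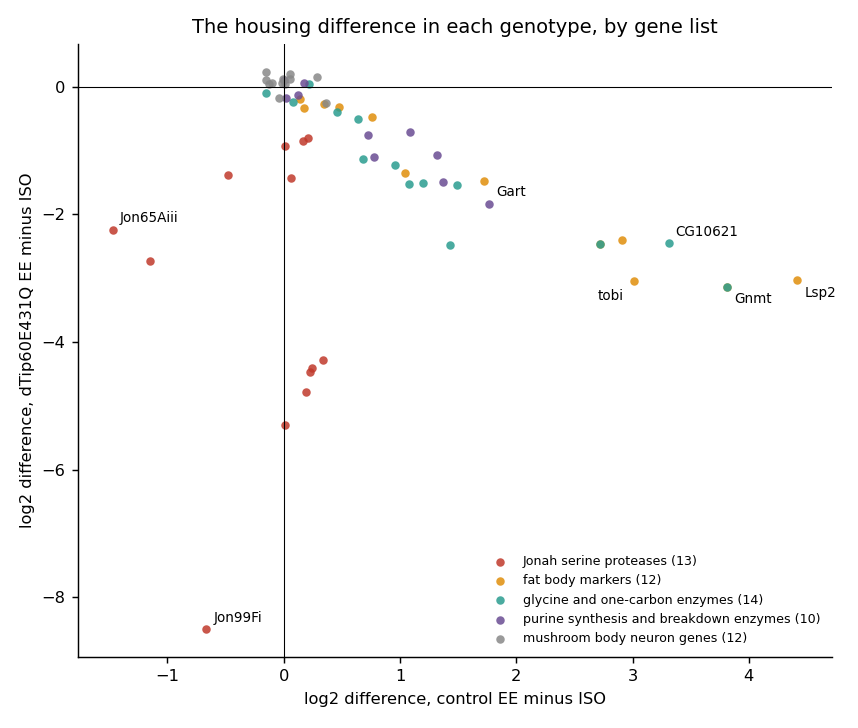
Each point is a gene, with the EE minus ISO log2 difference in control flies on the horizontal axis and in dTip60E431Q flies on the vertical axis; colours give the gene list. Jonah genes lie low with control differences near 0 or below it, fat body, one-carbon and purine genes run towards the lower right, from Gart to Lsp2, and mushroom body neuron genes lie near the origin.

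Other calls with this order included Ugt37A3, a UDP-glycosyl transferase, at 6.48 and 6.23 in ISO and 3.87 and 3.89 in EE (fall of 2.47). CG11741 fell by 3.23, CG43085 by 1.89, slow by 1.01 and the C-type lectin gene CG7763 by 2.03. CG43085 and CG7763 kept the call with the ISO arrays averaged. The order itself fixes a control difference above 0 and an interaction below 0, so the counts that follow only describe it. Of the 21 calls with this order, 20 were also called lower in the interaction (0.629% of all probe sets), and 11 were called higher in EE in controls (0.0799%). Of all 84 calls, 11 were called in the opposite direction in controls and 0 in the same direction, where the controls gave 17 calls in all. At an unadjusted p, 13 of the 1155 were among the control calls, all in the opposite direction.

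Of 15 insulin-like peptide and starvation-response genes, tobi alone was called, where 0.568% of all genes were called lower. At an unadjusted p 1 was higher (2.27% of all genes) and 3 were lower, tobi included (4.53%). Ilp5, an insulin-like peptide of the neurosecretory cells of the pars intercerebralis, had 11.23 and 11.06 in dTip60E431Q ISO and 9.87 and 9.19 in EE. Its difference of -1.62 (SE 0.29) was not called (adjusted p = 0.123 by limma), while the genotypes differed in their response (-2.83, adjusted p = 0.0393 for the interaction). Ilp2, made in the same cells, differed by -0.74 (adjusted p = 0.55). The insulin receptor gene InR ran the other way, at 7.12 and 7.16 in ISO and 7.75 and 7.71 in EE, above all control arrays, with a difference of 0.58 that was not called (adjusted p = 0.169).

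The largest rises were of 4 genes that were dim in isolated dTip60E431Q flies alone. CG8343, with a C-type lectin domain, had 4.80 and 4.94 in dTip60E431Q ISO and 11.55 and 12.20 in dTip60E431Q EE. The control arrays lay between 10.13 and 12.64, so the EE flies were within the control range. CG8343 rose by 7.0 (SE 0.71, adjusted p = 0.00869 by limma). CG3088, of the serine protease family, rose by 7.69 (SE 0.92, adjusted p = 0.0188), from 3.84 and 3.60 to 10.96 and 11.87.

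CG8329, also of the serine protease family, rose by 6.71, and CG11211, with a C-type lectin domain, by 6.12. In all 4 genes control ISO replicate 1 had the lowest value outside the isolated mutants, between 8.70 and 10.13. Calls of all 8 rises were lost when either dTip60E431Q ISO array or dTip60E431Q EE replicate 2 was left out and when the ISO pair was averaged, 6 of them also without EE replicate 1 and 6 without either control EE array, and in none of those fits did the sign change. In all 8 rises the EE and ISO arrays did not overlap, which fixed the sign in those fits. The interaction was not called for the 4 genes with the largest rises (adjusted p from 0.0556 to 0.162).

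The remaining rises were smaller. Cpr11B, a cuticle protein, had 6.54 and 6.45 in dTip60E431Q ISO, 8.42 and 9.51 in EE, 9.57 and 10.06 in control ISO and 7.80 and 8.02 in control EE. It rose by 2.47 (SE 0.34, adjusted p = 0.0399 by limma), and the genotypes differed in their response by 4.37 (adjusted p = 0.0132). One probe set of fau rose by 1.17, and the 4 others of this gene had differences from 0.19 to 0.89, none called. For f, which encodes the actin-bundling protein forked, one probe set rose by 1.15 at low signal and the brighter one differed by -0.16, so the probe sets of f disagreed.

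Among bright genes that were higher in EE only at an unadjusted p were Listericin and odorant-binding protein genes. Listericin, an antibacterial protein, had 9.45 and 9.39 in ISO and 11.18 and 11.995 in EE, where the controls read 11.48 to 12.29. Its difference was 2.17 (SE 0.33, adjusted p = 0.0668 by limma). Obp56e differed by 1.85, Obp28a by 1.52 and Obp56d by 1.38, and Obp56g by 4.63 with EE arrays as far apart as 7.47 and 10.94. In 10 of the 47 odorant-binding protein genes both dTip60E431Q ISO arrays were below the other 6, against 6.48% of all probe sets. At an unadjusted p 5 of the family were higher (2.27% of all genes) and 4 lower (4.53%). Obp99a was the one call, where 0.568% of all genes were called lower.

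Activity-regulated genes, which neuronal firing switches on, included several that stood highest in group-housed dTip60E431Q flies. None of the 13 was called, 4 passed at an unadjusted p, all higher in EE, where 2.27% of all genes passed, and in 5 of the 13 the dTip60E431Q EE arrays were above the other 6, an order found in 2.71% of probe sets. sr, an EGR-family transcription factor, had 8.65 and 8.45 in ISO and 9.61 and 9.37 in EE, with the controls between 8.08 and 8.38. Its difference was 0.94 (SE 0.14, adjusted p = 0.0627 by limma). The nuclear receptor gene Hr38 differed by 0.61, the transcription factor gene cbt by 0.49 and kay, the fly Fos, by 0.39. The interaction of sr was not called (0.80, adjusted p = 0.213).

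**Figure D5:**
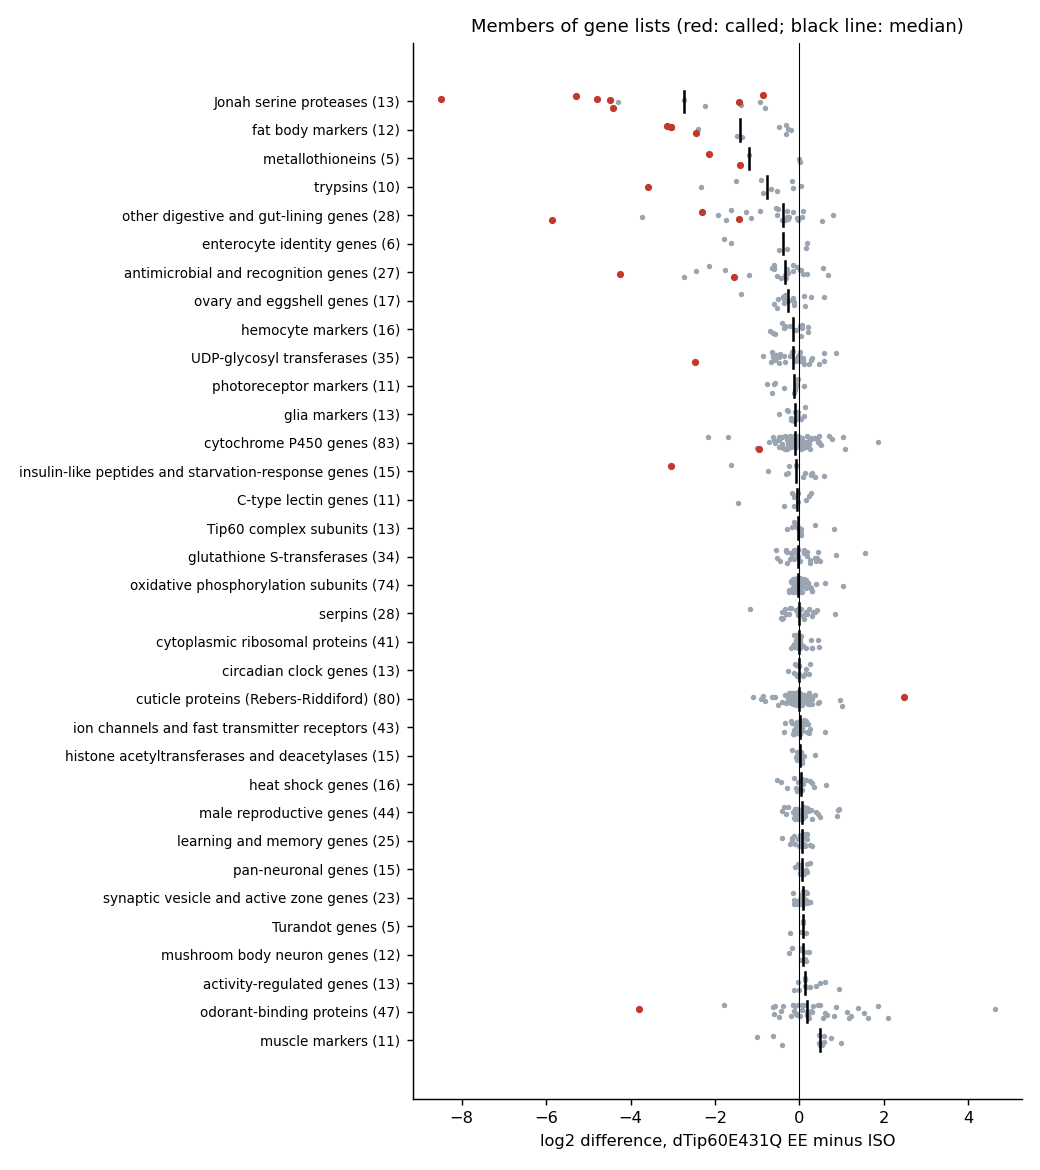
The log2 difference between group-housed and isolated dTip60E431Q flies is plotted for the members of each gene list (points, red where called), with the number measured in parentheses and the median as a black line. Jonah proteases have the lowest median, -2.74, followed by fat body markers at -1.42, and the neuronal, synaptic and Tip60 complex lists lie close to 0.

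Neuronal genes were near 0 in this comparison. Of 12 mushroom body neuron genes none was called and none passed at an unadjusted p, with differences from -0.25 to 0.23 and 95% confidence intervals within -0.76 and 0.67. dnc, a phosphodiesterase of the mushroom body, read 8.86 and 8.87 in ISO and 8.98 and 8.88 in EE. Of 15 pan-neuronal genes and 23 synaptic vesicle and active zone genes, also none passed at either level, and the largest difference in the latter was 0.25 in size. The mean signal of the pan-neuronal list was between 10.90 and 11.16 on all 8 arrays, so the neuronal markers were present throughout.

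Of 25 learning and memory genes none was called, and fru passed at an unadjusted p. fru, a transcription factor of courtship circuits, had 9.35 and 9.34 in ISO and 9.09 and 8.78 in EE (difference -0.41, SE 0.14, adjusted p = 0.498 by limma). Pka-R1, the regulatory subunit of protein kinase A, differed by 0.14, mbm by 0.15, jing by -0.22 and p by -0.17, none past either threshold. The clock gene tim differed by 0.23 in dTip60E431Q, against -2.06 in controls, and its interaction was called (2.30, adjusted p = 0.00188).

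Of 13 Tip60 complex subunits none was called. Act87E, an actin, differed by 0.81 (adjusted p = 0.321 by limma) and was the one that passed at an unadjusted p. None of 15 other histone acetyltransferases and deacetylases, 74 oxidative phosphorylation subunits, 41 cytoplasmic ribosomal proteins or 16 heat shock genes passed at either level. l(2)efl, a small heat shock protein gene outside that list, had 9.28 and 9.22 in ISO and 10.17 and 10.63 in EE, a difference of 1.15 (adjusted p = 0.0701).

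Markers of other cell types were mixed. Of 16 hemocyte markers none was called and 3 passed at an unadjusted p, all lower (4.53% of all genes). Among them were the collagen IV genes Col4a1 (-0.69) and vkg (-0.63). Muscle markers had a median of 0.48, with 2 higher and 2 lower at an unadjusted p. The muscle LIM protein gene Mlp60A had 10.68 and 10.69 in ISO and 11.35 and 12.02 in EE, and Mlc2 differed by 0.76. The muscle gene fln went the other way and differed by -0.41. Glia and photoreceptor markers had medians of -0.10 and -0.13, with no call.

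Called genes often lay side by side. By gene order in Release 6 of the genome, 29 of the 75 called genes had another called gene among the 5 measured genes on either side (38.7%), against 583 of 11824 other genes (4.93%). The 13 groups so formed included CG10477, Jon65Aii, Jon65Ai and CG10472, the carboxypeptidase pair CG8562 and CG8560, the aminopeptidase pair CG31233 and CG31198, and the peritrophin pair. Neighbours did not always move together: CG8329 rose while CG18179 and CG18180 beside it fell. Related genes of a family can share probe sequence, which was not examined here.

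The firmest calls were 36 probe sets, all falls, that were called with each of the 8 arrays left out in turn and with the ISO arrays averaged. Their differences ran from -8.50 to -1.43, and 33 of them were highest in dTip60E431Q ISO. Jon99Fi, Jon25Biii, mag, thetaTry, PGRP-SC2, Mal-A2, Obp99a and Gnmt were among the genes they read. Leaving out either array of a control pair gave the same result for this difference, so the fits were not all separate checks. Each of the 84 calls kept its sign in every alternative fit that tested it. Their EE and ISO arrays did not overlap, so leaving out or averaging arrays could not have changed the sign.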

How the data were processed

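RNA of sorted GFP-positive cells had been labelled and hybridised to Affymetrix Drosophila arrays. The authors background-corrected, quantile-normalised and summarised the probe sets with RMA in R (version not given in the sources used here), and the deposited values, on the log2 scale, were used as they were (1.60 to 13.8 without controls). Precision is limited by the 2 arrays per group, and the median 95% confidence interval of a difference was ±0.35.

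Arrays were grouped by their titles. After 183 AFFX probe sets were left out, 18769 were tested with limma 3.58.1 in R 4.3.3 (lmFit and eBayes), with 1 mean per group over all 8 arrays (4 residual and 2.91 prior degrees of freedom) and Benjamini-Hochberg adjustment over all probe sets. The contrasts were EE minus ISO in dTip60E431Q, the same in controls, and the interaction. Of the probe sets, 13647 had 1 gene symbol in the platform annotation, 402 several and 4720 none. A gene was read by its probe set with the highest mean (11982 genes). The fit was tested on simulated data.

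The members, gene lists and tests were chosen with earlier results of these data known. Lists were described by counts and medians and not tested, and 3 (one-carbon enzymes, purine enzymes and peritrophic matrix proteins) were added after the values were seen. Named genes were the rises among calls, the 20 largest falls, calls with a mean of at least 6.46, the 10 largest rises and falls at an unadjusted p among probe sets above the array median in all 4 arrays, up to 6 members per list and the study's genes. Genes of unknown function were mostly left within counts. Named outside that rule, after their values were seen, were Ag5r2, alphaTry, CG31233, CG6415, CG7763, dnc, hiro, Jon65Aiii, Jon66Cii, Jon99Ci, l(2)efl, Nmdmc, Obp56g, Paics, Peritrophin-15a, Peritrophin-15b, Pfas, pug, Shmt and Yp1, and the neighbour CG18179. Gene order was taken from Release 6 and used for neighbours only. The alternatives were other normalisations, other fits, filters and folds, the methods' t-test, a replicate block, and each array left out.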

Additional observations from a re-analysis of the deposited data

Results flagged for a closer look

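The response to housing differed between the genotypes, by a test of the difference itself, for 126 probe sets, of which 118 had the lower EE minus ISO difference in dTip60E431Q. In the values that follow, the log2 difference between EE and ISO in control flies was subtracted from that in dTip60E431Q flies, and each passed limma's test of the interaction at an adjusted p under 0.05. No cause was tested.

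Among the Jonah proteases the value was -7.83 for Jon99Fi, -5.31 for Jon25Biii, -4.97 for Jon65Ai, -4.71 for Jon65Aii, -4.65 for Jon44E, -1.50 for Jon66Ci and -1.02 for Jon66Cii. Other digestive and gut-lining genes gave -3.63 for thetaTry, -5.83 for mag, -1.51 for Mal-A2, -2.12 for Ser6, -2.45 for Peritrophin-15a, -5.09 for CG10472, -4.49 for CG10477, -4.89 for CG17633, -5.92 for CG8560, -4.02 for CG31233, -5.19 for CG31198, -5.18 for CG18493 and -5.04 for CG42397. In immune, metal-binding and other genes it was -4.23 for PGRP-SC2, -2.56 for MtnD, -0.99 for Cyp4d1, -4.77 for Acbp5, -2.87 for Ag5r2 and -3.81 for hiro.

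Fat body and secreted protein genes gave -6.38 for Obp99a, -7.45 for Lsp2, -6.05 for tobi, -5.32 for fit, -2.40 for Yp2 and -3.20 for Yp3. One-carbon and purine enzymes gave -6.95 for Gnmt, -5.17 for Sardh, -3.90 for CG3999, -2.18 for Tdh, -5.76 for CG10621, -1.81 for Nmdmc, -1.88 for ry and -3.60 for Gart. The remaining lower values were -4.77 for Ugt37A3, -6.17 for CG11741, -4.53 for CG43085, -3.41 for CG7763, -1.62 for slow and -2.83 for Ilp5. Cpr11B (4.37) and tim (2.30) had higher values in dTip60E431Q. In this set fit, Yp2, Yp3, CG10621, Nmdmc, Gart, Ilp5 and tim were not called within dTip60E431Q itself.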

How the results depend on the processing

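With 2 arrays per group, the number of calls depended on the arrays and the test more than on the scaling. With only the 4 dTip60E431Q arrays fitted, 169 probe sets were called (28 higher, 141 lower), 36 of them in genes of the lists in place of 23. With weak probe sets left out, 15 were called, 486 passed at an unadjusted p, 46 were called in the interaction and 6 list genes were called, also because fewer were tested. Yet 25 of the 84 calls were still tested, and only 15 of these were kept. Lsp2, Drs, Cpr11B, CG3088, CG8329 and CG11211 were tested there and lost the call. The methods' t-test called 0 after adjustment, with 608 at an unadjusted p and 0 list genes, while limma called 84. With the 2 dTip60E431Q ISO arrays averaged, 40 were called, 621 passed at an unadjusted p, 45 were called in the interaction and 11 list genes were called. With each array left out in turn, calls ran from 37 to 159, those at an unadjusted p from 732 to 1533, those in the interaction from 44 to 638 and list genes from 11 to 30. Leaving out dTip60E431Q ISO replicate 1 or 2 gave 40 and 37 calls and 44 interaction calls each, leaving out control ISO replicate 1 or 2 gave 159 each, and the interaction gave 638 without control ISO replicate 2 and 60 and 66 without control EE replicate 1 and 2. The lone array of a group carries no spread of its own and was assumed to vary like the other groups. Leaving out either array of a control pair therefore gave the same dTip60E431Q difference, standard error and calls. The SD of the difference within the pair was 0.479 for control ISO and 0.183 for dTip60E431Q ISO. How far these spreads account for the counts was not tested. Cyclic loess (80) and a further quantile normalisation (86) kept 76 and 80 of the 84 calls. All 84 kept their sign under each alternative, or all 25 and 73 where a filter left fewer to test. The EE and ISO arrays did not overlap in any of the 84, so leaving out or averaging arrays could not have changed the sign. Among the named genes only jing changed sign, with values from -0.45 to 0.017 when an array was left out, the last without dTip60E431Q EE replicate 2. Deviations of same-numbered arrays correlated by 0.312 between control ISO and control EE and by 0.263 between control ISO and dTip60E431Q EE. For the other pairs of groups the correlation ran from -0.0862 to -0.00537. Whether the numbers pair the arrays was not tested. A replicate block gave 95 calls (1358 at an unadjusted p, 138 in the interaction, 25 list genes).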
